A study of Homo sapiens with 27 samples.

Results

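The 9 genes described here encode leukocyte integrin subunits and ligands that they bind: the alpha subunits ITGAM, ITGAX, ITGAL and ITGA4, the beta subunits ITGB2, ITGB1 and ITGB7, and the intercellular adhesion molecules ICAM1 and ICAM3. They were picked by symbol from a table of 57992 genes, and all 9 were found and passed the low-count filter in every comparison. RNA was sequenced from 27 libraries of 3 human acute myeloid leukaemia (AML) lines. In each line, 3 libraries carried shCARM1 hairpin 1, 3 carried shCARM1 hairpin 2 and 3 carried the scramble hairpin. CARM1, also called PRMT4, is an arginine methyltransferase that modifies histones and transcription factors. MOLM-13 and MV411 are lines with a KMT2A fusion and an internal tandem duplication in FLT3, and SKNO1 carries the RUNX1-RUNX1T1 fusion. All cells, the scramble cells included, had been infected with a lentivirus that expresses its hairpin constitutively, and RNA was taken 3 days after the hairpins were delivered. SKNO1 alone was grown with 10 ng/mL GM-CSF, so a difference between SKNO1 and the other lines cannot be told apart from that of the medium. Each line stands for a single patient's leukaemia, and the labels do not say whether the 3 replicates of a group were separate cultures or infections, so p-values measure only the spread between these libraries.

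Integrins are pairs of an alpha and a beta subunit that span the plasma membrane and hold a cell to other cells or to matrix. On leukocytes, the beta subunit ITGB2 (CD18) pairs, among these genes, with ITGAL (CD11a), ITGAM (CD11b) or ITGAX (CD11c). The pair with ITGAL binds the ICAM proteins on neighbouring cells. ITGA4 pairs with ITGB1 to bind VCAM1 and fibronectin in the marrow, or with ITGB7 to bind MADCAM1 in the gut. ITGAM and ITGAX are gained as myeloid cells mature into monocytes, granulocytes and dendritic cells, and ICAM1 is a well-known target of inflammatory signalling through NF-kB.

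Library totals ran between 25063577 and 53291599 expected counts. CARM1 fell in all 6 comparisons of a hairpin with scramble, by 2.37 and 2.59 on the log2 scale with hairpins 1 and 2 in MOLM-13, by 1.94 and 2.97 in MV411, and by 1.25 and 2.695 in SKNO1. Hairpin 2 left less CARM1 than hairpin 1 in MV411, at 3.03 ± 0.6295 against 6.10 ± 0.2725 CPM (SD, n = 3 each; adjusted p = 0.00455), and in SKNO1, at 2.76 ± 0.0890 against 7.54 ± 1.63 CPM (adjusted p = 0.000957). CPM here means an expected count scaled to a common library size. PTPRC, CD33 and SPI1, which mark myeloid blood cells, were present in every group, RUNX1T1 was 56.6 to 113 CPM in SKNO1 and at most 0.103 CPM in the other lines, and HOXA9 was 23.4 to 57.3 CPM in MOLM-13 and MV411 and at most 0.0262 CPM in SKNO1. Mitochondrial ribosomal RNA and small structured RNAs took 40.9% to 52.1% of counts in the knockdown libraries of MOLM-13 against 36.4% to 38.8% in scramble, 42.0% to 50.6% against 36.6% to 39.2% in MV411, and 23.5% to 28.8% against 17.8% to 20% in SKNO1. Mitochondrial ribosomal RNA alone took 0.0524% to 0.429% in the 9 SKNO1 libraries, which stand apart from the 22.85% to 34.9% in those of MOLM-13 and MV411. Whether this came from the cells or from library preparation was not tested. A difference between SKNO1 and the other lines cannot be told apart from it. With mitochondrial ribosomal and small structured RNAs left out before scaling, every count of called members in the hairpin, baseline and interaction comparisons was unchanged.

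In 54 tests, 9 genes in 6 comparisons of a hairpin with scramble, 10 passed the threshold of 0.05 as higher and 1 as lower, and 45 had a log2 fold change above 0. These tests are not independent, since both hairpins of a line share 3 scramble libraries and several members varied together. The share of all genes with a value above 0 was not taken. ICAM1 rose in 5 of the 6 comparisons, and its 3 knockdown libraries were above all 3 scramble libraries in every comparison. All calls of integrin subunits came in MV411 with hairpin 2, where ITGAM, ITGAX, ITGB2, ITGB1 and ITGB7 rose together with ICAM1. The single call downward was ICAM3 in MV411 with hairpin 1. ITGAL and ITGA4 passed the threshold in no comparison of a hairpin with scramble, but ITGAL passed as lower with hairpin 1 in MV411 when replicates were paired.

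**Figure D1:**
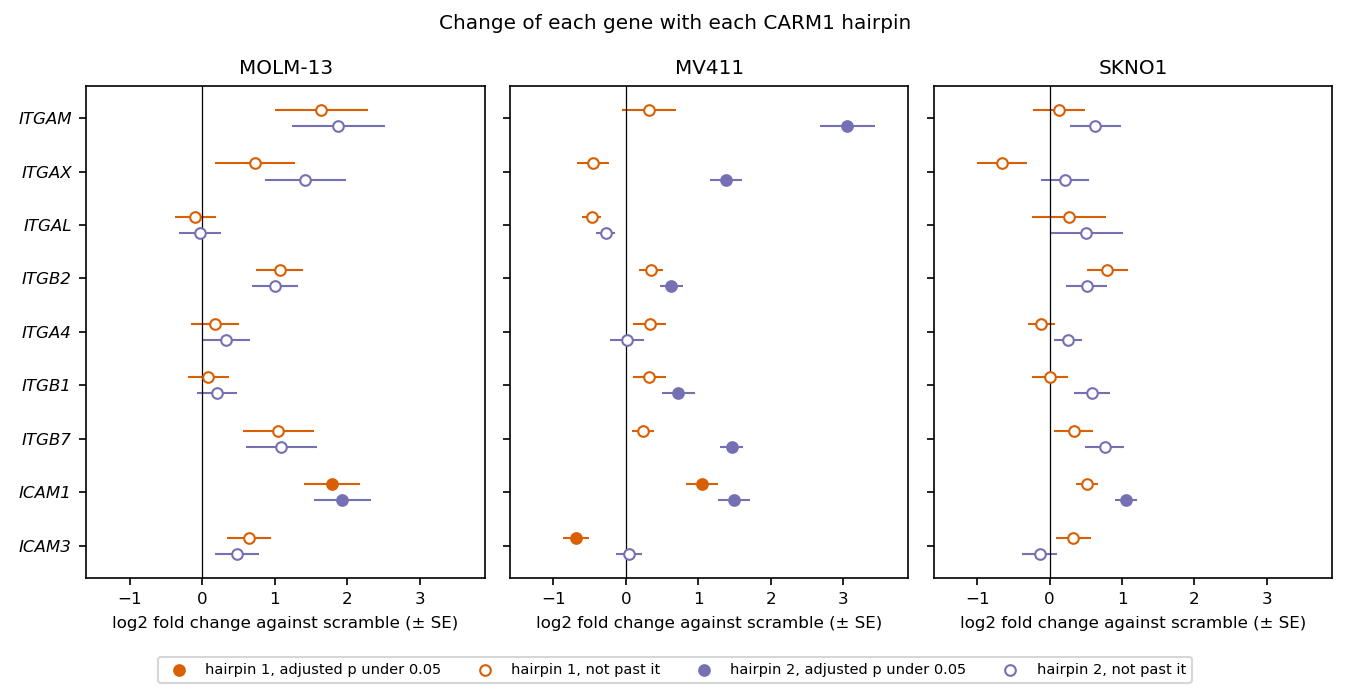
Log2 fold change of each of the 9 genes against scramble (x axis, with the standard error as a bar) for hairpin 1 and hairpin 2 in each line; filled points passed an adjusted p of 0.05 in edgeR. ICAM1 is filled in 5 of 6 places, and the integrin subunits are filled only in MV411 with hairpin 2.

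The members called are given beside the share of all genes called in the same comparison. The members were chosen with earlier results of these data known, so this is no test of them as a set. In MOLM-13, 1 of 9 members rose with hairpin 1 and 1 of 9 with hairpin 2, where 2.13% and 3.39% of 17732 genes were called higher, 4.25% and 6.03% lower, and 6.38% and 9.42% in either direction. In MV411, 1 member rose and 1 fell with hairpin 1, where 2.37% of 17816 genes were called higher, 4.13% lower and 6.51% in either direction. With hairpin 2 in MV411, 6 of 9 rose, where 8.38% of genes were called higher, 10.2% lower and 18.6% in either direction. In SKNO1, no member passed with hairpin 1 in edgeR, where 0.255% of 18430 genes were called higher, 0.277% lower and 0.532% in either direction; 2 members had an unadjusted p under 0.05, and DESeq2 called 1. With hairpin 2 in SKNO1, 1 of 9 rose, where 5.54% of genes were called higher, 5.69% lower and 11.2% in either direction.

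The median log2 fold change over the 9 members was 0.72 and 1.00 with hairpins 1 and 2 in MOLM-13, 0.32 and 0.72 in MV411, and 0.27 and 0.515 in SKNO1. The median over all genes tested lay between -0.02 and 0.07 in these comparisons. Both hairpins of a line were compared with the same 3 scramble libraries, so the 2 medians of a line are not independent. Members whose 3 knockdown libraries were all above the 3 scramble libraries numbered 3 and 4 with hairpins 1 and 2 in MOLM-13, where 16.5% and 13.5% of all genes were so placed. They numbered 2 and 5 in MV411, where the shares of all genes were 14.9% and 15.1%, and 2 and 3 in SKNO1, where they were 10.8% and 19.7%. Members all below scramble were ITGAL and ICAM3 with hairpin 1 in MV411, where 13.8% of genes were, and ITGAL with hairpin 2 in MV411, where 15.1% were.

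The lines differed widely in which of these genes they expressed before any knockdown. Levels were compared between genes as CPM per kilobase of annotated exon in the scramble libraries. In SKNO1 the highest was ITGA4, at 37.3 CPM per kilobase (34.3 to 39.8 over 3 libraries), then ITGB1 at 19.0 (16.6 to 22.9) and ICAM3 at 18.7 (13.2 to 22.2), which overlapped. ICAM1 followed at 7.78 (7.11 to 8.46) and ITGB2 at 3.18 (1.94 to 4.07). ITGB7, ITGAX, ITGAL and ITGAM were at 0.569, 0.258, 0.106 and 0.0957, in that order, and the ranges of ITGAX, ITGAL and ITGAM overlapped. SKNO1 held RNA of the ITGA4 and ITGB1 pair and little of the ITGB2 partners, ITGAL and ITGAM resting on 16 to 64 counts per library.

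In MOLM-13, ITGAL was highest at 64.1 CPM per kilobase (51.1 to 72.0), above the range of every other member. ITGB2 at 34.8 (25.0 to 43.5), ICAM3 at 29.4 (21.0 to 34.2) and ITGB1 at 23.2 (21.5 to 25.8) overlapped, and ITGA4 at 17.0 (13.0 to 23.1) overlapped ICAM3 and ITGB1. ITGB7, ITGAM, ITGAX and ICAM1 lay between 2.55 and 3.975 and were not separated from each other. In MV411, ITGAL stood at 137 CPM per kilobase (127 to 151), with ITGB2 at 23.95, ITGA4 at 18.7 and ITGB1 at 13.95 next, of which ITGB2 and ITGA4 overlapped, as did ITGA4 and ITGB1. ITGB7 at 5.74, ICAM1 at 4.825, ICAM3 at 3.47 and ITGAX at 1.35 followed, and ITGAM was lowest at 0.420 (0.196 to 0.632). Of these, only the ranges of ITGB7 and ICAM1 overlapped. With the longest transcript as the length, ITGB1 passed ICAM3 and ITGAX passed ITGAM in MOLM-13, and ITGA4 passed ITGB2 in MV411.

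**Figure D2:**
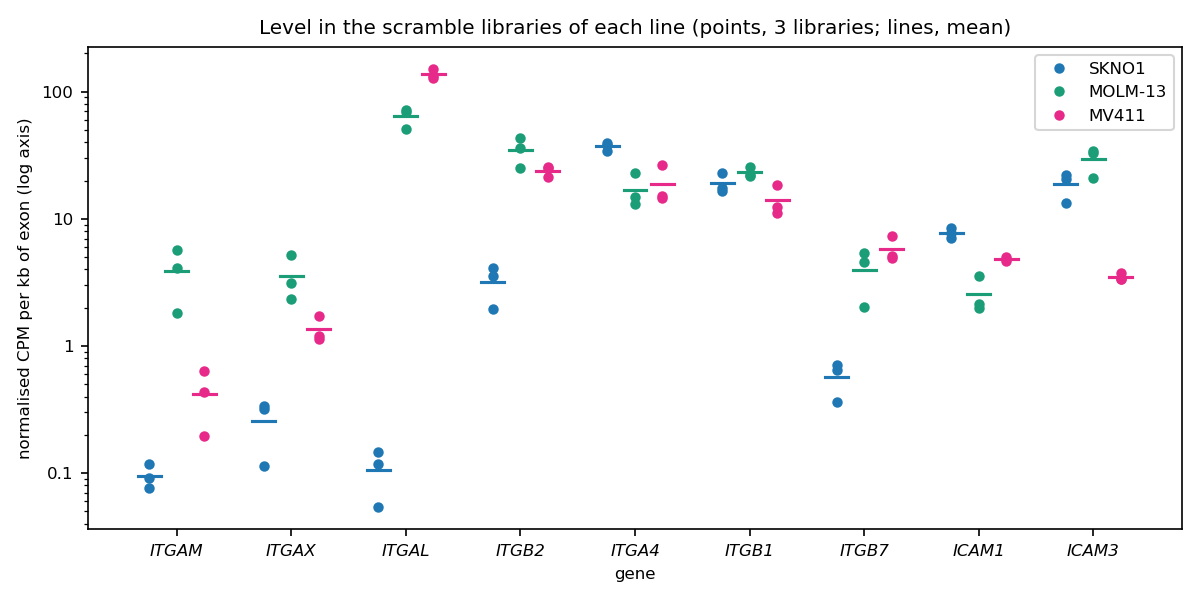
Level of each gene in the 3 scramble libraries of each line, as normalised CPM per kilobase of exon on a log axis; points are libraries and lines are means. ITGAL lies between 127 and 151 in MV411 and at 0.106 on average in SKNO1, while ITGB1 is at 19.0, 23.2 and 13.95 on average in SKNO1, MOLM-13 and MV411.

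SKNO1 differed from MOLM-13 in 8 of the 9 genes and from MV411 in 8 of 9, where 56% and 55.5% of 19340 genes were called in either direction. Against MOLM-13, 2 members were higher and 6 lower, where 27.2% and 28.8% of genes were, and against MV411, 3 were higher and 5 lower, where 27.1% and 28.4% were. The largest difference in both comparisons was that of ITGAL. ITGAL was at 0.687 ± 0.306 CPM in SKNO1, against 415 ± 73.1 in MOLM-13 and 887 ± 80.3 in MV411 (SD, n = 3 each), a log2 fold change of -9.24 ± 0.335 against MOLM-13 and -10.32 ± 0.35 against MV411 (SE). ITGAM was lower in SKNO1, with log2 fold changes of -5.35 and -2.11, as were ITGAX with -3.79 and -2.39, ITGB2 with -3.47 and -2.91, and ITGB7 with -2.81 and -3.33, against MOLM-13 and MV411 in that order. ITGA4, in contrast, was higher in SKNO1, by 1.12 ± 0.25 against MOLM-13 and 1.01 ± 0.25 against MV411, and so was ICAM1, by 1.60 ± 0.21 and 0.69 ± 0.20. ITGB1 passed the threshold in neither (adjusted p = 0.21 and 0.0654).

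MOLM-13 and MV411 differed in 6 of the 9 genes, where 30.8% of all genes were called, 16% higher and 14.8% lower. MOLM-13 had more ITGAM, at 22.1 ± 11.1 against 2.39 ± 1.24 CPM in MV411 (9.43-fold, adjusted p = 0.000257), more ICAM3, at 86.65 ± 21.4 against 10.2 ± 0.6245 CPM (8.54-fold, adjusted p = 2.85e-06), and more ITGAX (2.65-fold) and ITGB1 (1.68-fold). It had less ITGAL and ICAM1, with log2 fold changes of -1.08 ± 0.23 and -0.91 ± 0.20. ITGB2, ITGA4 and ITGB7 did not pass between them. ICAM3 in SKNO1 stood at 55.1 CPM, between MOLM-13 and MV411, 5.38-fold above MV411 and 0.630 times MOLM-13, with libraries that overlapped those of MOLM-13. The calls of ITGAX and ITGB1 between MOLM-13 and MV411 and of ICAM3 between SKNO1 and MOLM-13 were lost in 2, 3 and 3 of 12 alternatives: for ITGAX without MOLM-13 scramble replicate 2 or MV411 scramble replicate 3, for ITGB1 without MV411 scramble replicate 2 or 3 or in the fit of all 27 libraries, and for ICAM3 without MOLM-13 scramble replicate 1 or 2 or SKNO1 scramble replicate 2.

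ITGB2, the shared beta subunit, was higher with each hairpin in each line by its fitted value, but passed the threshold in 1 comparison. In MOLM-13 it was 756, 399 and 332 CPM with hairpin 1 and 421, 398 and 586.5 CPM with hairpin 2, against 296, 244 and 170.1 CPM in scramble. Every knockdown library was above every scramble library, at a fold change of 2.10 and 2.005 with hairpins 1 and 2 (adjusted p = 0.0769 and 0.0747, not passing). Both passed with DESeq2, in the fit of all 27 libraries and without the low-count filter. In MV411 it was 218, 203 and 204 CPM with hairpin 1 and 290.3, 277 and 197 CPM with hairpin 2, against 145, 169 and 174 CPM in scramble. The groups again did not overlap, and the 1.55-fold rise with hairpin 2 passed (log2 0.63 ± 0.16, adjusted p = 0.0221), while hairpin 1 gave 1.27-fold (adjusted p = 0.271). The call with hairpin 2 was lost in 5 of 12 alternatives, among them those without replicate 1 or 2 of hairpin 2 or replicate 1 or 3 of scramble.

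In SKNO1, ITGB2 was 49.2, 28.4 and 35.7 CPM with hairpin 1 and 29.9, 40.0 and 23.3 CPM with hairpin 2, against 23.95, 13.2 and 27.7 CPM in scramble. Hairpin 1 libraries lay above scramble and those of hairpin 2 overlapped it, and neither passed (adjusted p = 0.185 and 0.274). On the opposite strand of ITGB2 (chr21:44885953-44931989, minus strand, GENCODE 29 on GRCh38) lies the antisense gene ITGB2-AS1, which shares 8628 bases with it. ITGB2-AS1 reached at most 237 counts in a library and rose with both hairpins in MOLM-13 (log2 2.27 ± 0.55 and 2.09 ± 0.54, adjusted p = 0.0353 and 0.0399) and with hairpin 2 in MV411 (1.25 ± 0.26, adjusted p = 0.0073). How strand was treated in counting is not given in the sources used here, so reads of ITGB2 and its antisense gene may not be told apart. The counts of ITGB2 were whole numbers in 24 of 27 libraries, and whether it shared reads with ITGB2-AS1 was not tested.

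ITGAM encodes the alpha subunit of complement receptor 3, which monocytes and granulocytes use to bind opsonised particles. In MV411 with hairpin 2 it was 24.8, 20.9 and 14.4 CPM, with hairpin 1 it was 3.16, 3.66 and 2.14 CPM, and in scramble 3.59, 2.46 and 1.11 CPM. All 3 libraries of hairpin 2 stood above the other 6, and hairpin 1 overlapped scramble. The rise with hairpin 2 was 8.33-fold (log2 3.06 ± 0.38, adjusted p = 0.000554), the largest fold change among the 54 member tests, and it passed in all 12 alternatives. Hairpin 1 gave a log2 fold change of 0.32 ± 0.38 (adjusted p = 0.721), and hairpin 2 was 6.67-fold above hairpin 1 (log2 2.74 ± 0.38, adjusted p = 0.00153).

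ITGAM in MOLM-13 was 135, 36.2 and 36.1 CPM with hairpin 1 and 35.0, 62.6 and 144 CPM with hairpin 2, against 32.4, 23.5 and 10.4 CPM in scramble. Each knockdown library was above each scramble library, but the values within each group were far apart and neither fold change passed (3.13-fold, adjusted p = 0.157, and 3.67-fold, adjusted p = 0.0898). Without hairpin 1 replicate 1 the log2 fold change of hairpin 1 was 0.70 in place of 1.645, and without hairpin 2 replicate 3 that of hairpin 2 was 1.18 in place of 1.88. Both passed in the fit of all 27 libraries and without the low-count filter. In SKNO1 it was at 0.338 to 0.773 CPM with hairpin 1 and 0.643 to 1.04 CPM with hairpin 2, against 0.437 to 0.672 CPM in scramble, and the groups overlapped.

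ITGAX, the alpha subunit known as the dendritic cell and macrophage marker CD11c, starts 22241 bases past the end of ITGAM on chromosome 16 (chr16:31355134-31382997, against chr16:31259967-31332892, both on the plus strand). In MV411 it was 21.0, 27.5 and 27.4 CPM with hairpin 2, 6.22, 8.875 and 6.02 CPM with hairpin 1, and 8.42, 12.2 and 8.07 CPM in scramble. Hairpin 2 stood above both other groups, and it was 2.61-fold above scramble (adjusted p = 0.00162) and 3.57-fold above hairpin 1 (adjusted p = 0.000947). Hairpin 1 had a log2 fold change of -0.45 ± 0.22 (adjusted p = 0.269). In MOLM-13 it was 75.2, 22.8 and 26.99 CPM with hairpin 1 and 24.2, 98.2 and 77.1 CPM with hairpin 2, against 22.3, 36.8 and 16.5 CPM in scramble. These groups overlapped, and neither hairpin passed (adjusted p = 0.484 and 0.128). In SKNO1 the libraries lay between 0.808 and 2.52 CPM with no comparison past the threshold.

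ITGAL, the subunit that lymphocytes and monocytes use to hold on to ICAM1, had values below scramble in MV411. In MV411 it was 685, 618 and 632 CPM with hairpin 1 and 733, 710.4 and 787.5 CPM with hairpin 2, against 977, 823 and 861 CPM in scramble. All 6 knockdown libraries were below all 3 scramble libraries, with log2 fold changes of -0.47 ± 0.13 (adjusted p = 0.0606) and -0.28 ± 0.13 (adjusted p = 0.185), neither of which passed. The value with hairpin 1 passed in DESeq2 (adjusted p = 0.002) and with replicates paired by number in edgeR (log2 -0.47, adjusted p = 0.0115), where 2250 genes were called in place of 1159. In MOLM-13 the log2 fold changes were -0.09 ± 0.29 and -0.04 ± 0.29, with overlapping groups. In SKNO1 its 16 to 64 counts per library gave 0.27 ± 0.51 and 0.51 ± 0.50, also overlapping.

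**Figure D3:**
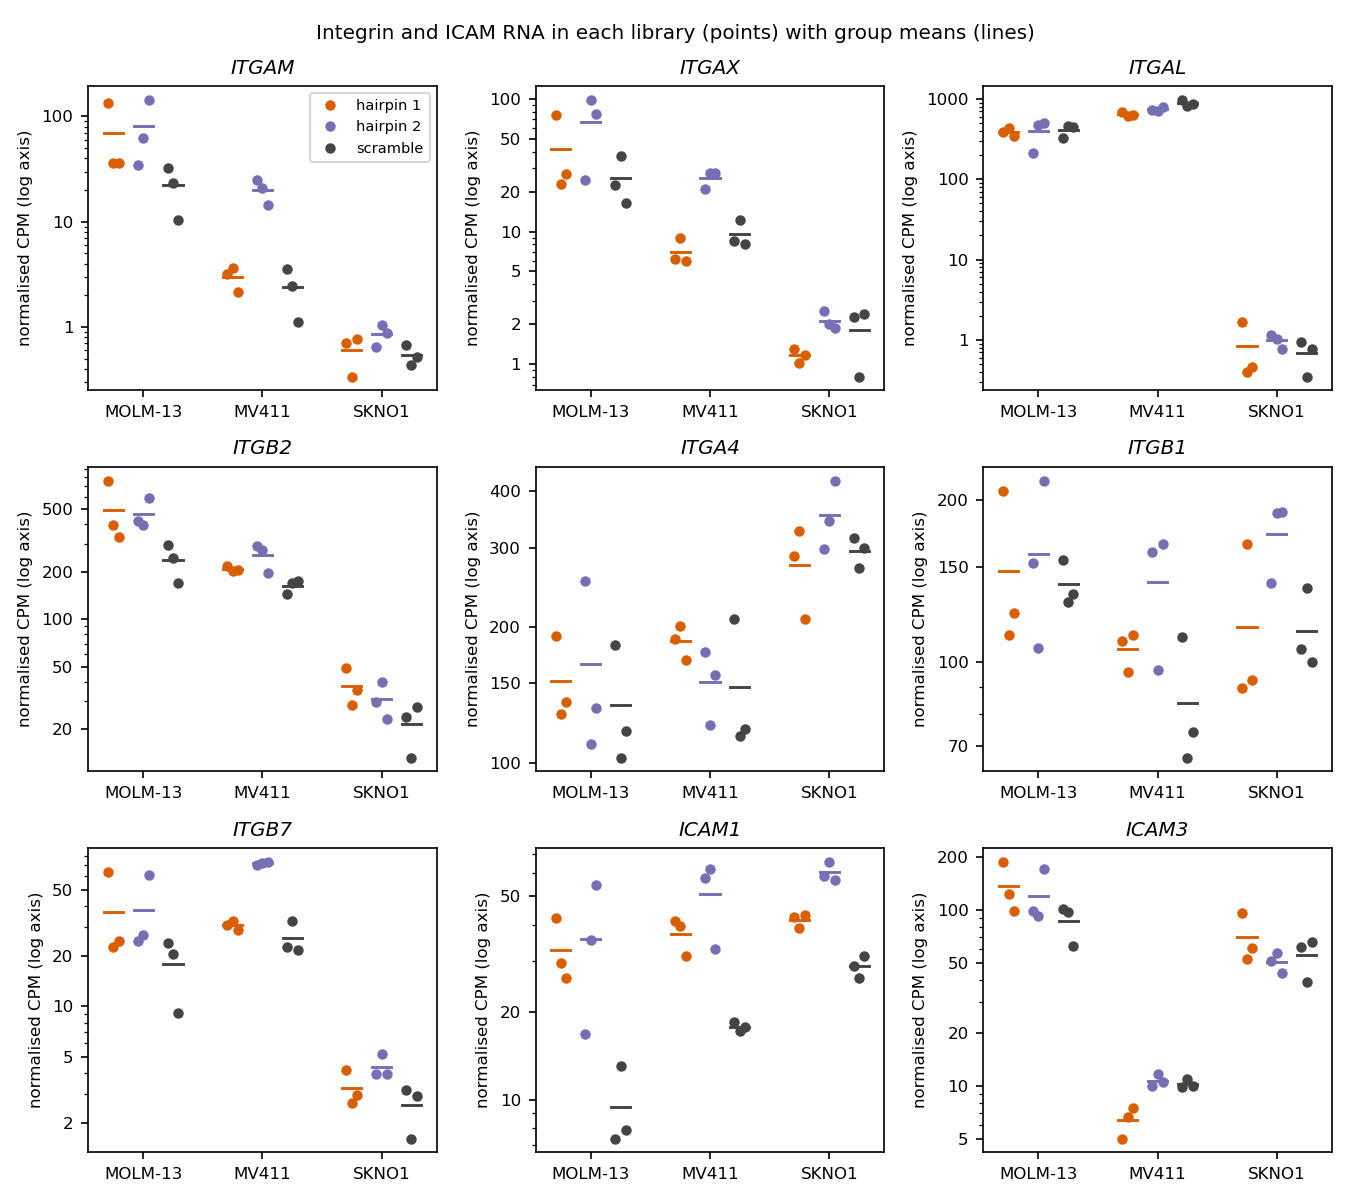
Normalised CPM of the 9 genes in each of the 27 libraries on log axes that differ between panels; points are libraries and lines are group means, with hairpin 1, hairpin 2 and scramble in that order within each line. In MV411 the hairpin 2 points of ITGAM, ITGAX and ITGB7 stand apart from the other 6 libraries of that line.

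The balance of ITGAL, ITGAM and ITGAX, the alpha partners of ITGB2 among the members, was taken as each one's share of their summed level per kilobase. Alpha subunits outside the members, such as ITGAD, were not counted. In MV411, ITGAM made up 3.61%, 3.13% and 1.98% with hairpin 2 and 0.518%, 0.660% and 0.381% with hairpin 1, against 0.414%, 0.335% and 0.146% in scramble. The hairpin 2 libraries were highest, and even there ITGAL made up 93.6% to 95% of the sum. In MOLM-13, ITGAM made up 25.2%, 8.28% and 9.97% with hairpin 1 and 14.3%, 11.1% and 22.2% with hairpin 2, against 9.50%, 5.085% and 2.501% in scramble, where hairpin 2 lay above scramble and hairpin 1 overlapped it. The summed alpha level over that of ITGB2 was 3.345, 3.26 and 3.30 with hairpin 1 and 2.82, 2.88 and 4.42 with hairpin 2 in MV411, against 7.15, 5.20 and 5.25 in scramble. All 6 knockdown libraries of MV411 were below scramble in this ratio, but both hairpins were set against the same 3 scramble libraries. For each hairpin, 3 against 3 libraries cannot give a 2-sided exact permutation p below 0.1. In MOLM-13 the ratio was 0.845, 1.31 and 1.305 with hairpin 1 and 0.693, 1.685 and 1.32 with hairpin 2. Scramble was at 1.38, 2.26 and 2.93, with hairpin 1 below it and hairpin 2 overlapping it. In SKNO1 the ratio was at most 0.166 in every library. It was 0.0785, 0.0634 and 0.0712 with hairpin 1, below scramble at 0.166, 0.126 and 0.135. Hairpin 2 overlapped scramble there, at 0.147, 0.106 and 0.157.

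**Figure D4:**
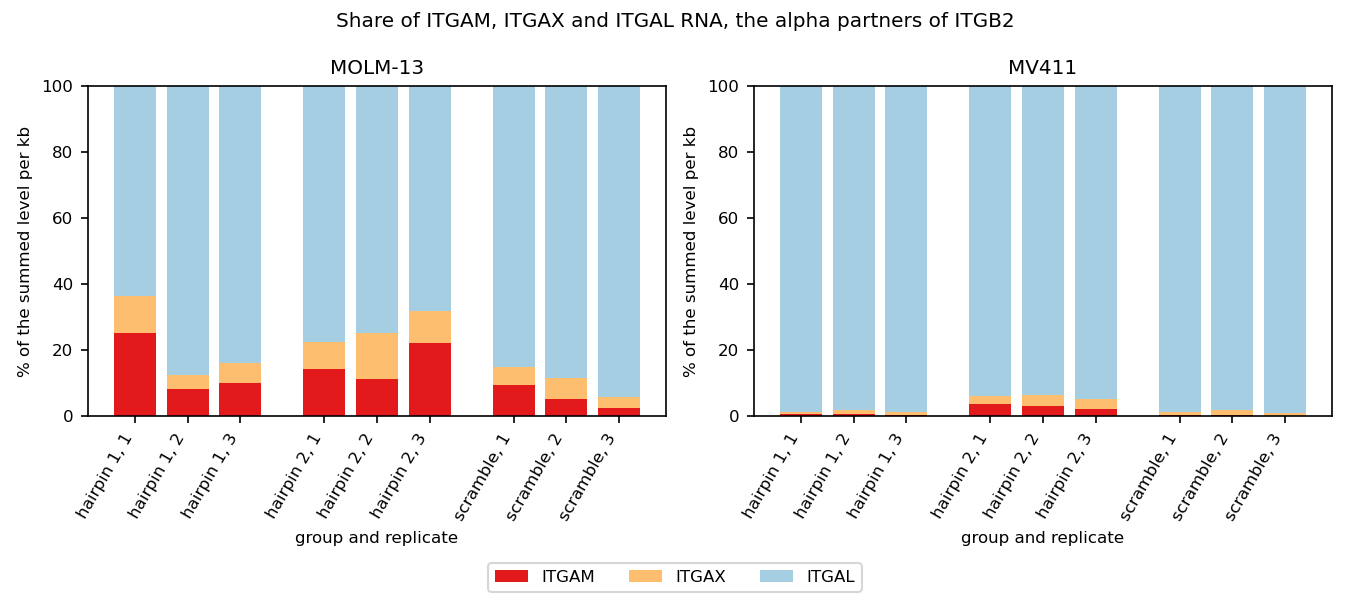
Share of ITGAM, ITGAX and ITGAL in their summed level per kilobase (y axis, percent) in each library of MOLM-13 and MV411, 3 replicates per group. ITGAL fills 93.6% or more of every MV411 bar, and ITGAM ranges between 2.501% and 25.2% in MOLM-13.

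ITGA4, which holds leukaemic and normal progenitors to marrow stroma with ITGB1, passed in no comparison with scramble. Its log2 fold changes lay between -0.11 and 0.33, and its knockdown and scramble libraries overlapped in all 6 comparisons. Values ran between 109.9 and 253 CPM in MOLM-13 knockdown libraries, against 103 to 182 CPM in scramble. They were 121.5 to 201.5 CPM in MV411 knockdown libraries, against 115 to 208 CPM in scramble. They were 209 to 422 CPM in SKNO1 knockdown libraries, against 271 to 314 CPM in scramble. The neighbouring gene CERKL lies 488 bases past the end of ITGA4 on the opposite strand and does not overlap it, and the counts of ITGA4 were whole numbers in 27 of 27 libraries.

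ITGB1, the most widely used integrin beta subunit, was 160.3, 96.8 and 165 CPM with hairpin 2 in MV411 and 109.6, 95.9 and 112 CPM with hairpin 1, against 111, 66.5 and 74.0 CPM in scramble. The groups overlapped, since scramble replicate 1 was above hairpin 2 replicate 2. The 1.65-fold change with hairpin 2 passed narrowly (adjusted p = 0.0499) and was lost in 5 of 12 alternatives, with adjusted p up to 0.182: in the fit of all 27 libraries and without hairpin 2 replicate 1 or 3 or scramble replicate 2 or 3. Elsewhere ITGB1 did not pass, with log2 fold changes between 0.01 and 0.58, the highest with hairpin 2 in SKNO1 (adjusted p = 0.158).

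ITGB7, the other partner of ITGA4, rose in MV411 with hairpin 2 to 69.8, 72.2 and 73.3 CPM, with 30.55, 32.4 and 28.6 CPM under hairpin 1, against 22.7, 32.5 and 21.9 CPM in scramble. Hairpin 2 stood above both other groups, 2.75-fold over scramble (adjusted p = 0.000282) and 2.34-fold over hairpin 1 (adjusted p = 0.00113), and it passed in all 12 alternatives. In MOLM-13 it was 63.4, 22.65 and 24.5 CPM with hairpin 1 and 24.6, 26.9 and 61.2 CPM with hairpin 2, against 23.9, 20.45 and 9.06 CPM in scramble. Neither passed there, at 2.07-fold (adjusted p = 0.237) and 2.13-fold (adjusted p = 0.176). In SKNO1 it was 3.95, 5.18 and 3.94 CPM with hairpin 2, all above scramble at 3.15, 1.615 and 2.885 CPM, but the 1.695-fold difference did not pass (adjusted p = 0.0874).

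ITGB7 (chr12:53191318-53207307, minus strand) overlaps the zinc finger gene ZNF740 on the opposite strand by 3824 bases. ZNF740 had up to 2462 counts in a library, and none of the 27 values of ITGB7 was a whole number. ITGB1, ICAM1 and ICAM3 had whole counts in 1 of 27 libraries each. Whether ITGB7 shared reads with ZNF740 was not tested. ZNF740 passed in none of the 6 comparisons and stood at 47.2 CPM with hairpin 2 in MV411, against 42.7 CPM in scramble (log2 0.125 ± 0.12, adjusted p = 0.537).

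ICAM1 is the ligand of ITGAL and ITGAM with ITGB2 and is carried by leukocytes and endothelium. Its promoter is shown because ICAM1 was the member called most often: 250 bases before to 50 after the RefSeq start on GRCh38.p14, chr19:10270870-10271169, plus strand. Capitals mark the match to GGNNNTTCC, a common form of the NF-kB motif, which begins 186 bases before the start and was found in 20.1% of 27305 promoters of the same length.
ICAM1: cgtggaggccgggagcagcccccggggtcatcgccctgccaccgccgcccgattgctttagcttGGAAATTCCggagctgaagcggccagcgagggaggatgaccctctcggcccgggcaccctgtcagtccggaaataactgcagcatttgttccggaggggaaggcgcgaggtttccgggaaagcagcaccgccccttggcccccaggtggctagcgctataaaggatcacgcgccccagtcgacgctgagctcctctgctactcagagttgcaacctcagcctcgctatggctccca

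In MOLM-13, ICAM1 was 42.3, 29.5 and 26.2 CPM with hairpin 1 and 16.9, 35.6 and 54.7 CPM with hairpin 2, against 7.38, 13.1 and 7.88 CPM in scramble. In MV411 it was 41.0, 39.4 and 31.2 CPM with hairpin 1 and 57.7, 62.3 and 33.1 CPM with hairpin 2, against 18.5, 17.3 and 17.8 CPM in scramble. In SKNO1 it was 42.5, 38.9 and 43.1 CPM with hairpin 1 and 59.0, 65.7 and 57.1 CPM with hairpin 2, against 28.8, 26.3 and 31.3 CPM in scramble. In each line every knockdown library was above every scramble library. The fold changes were 3.45 and 3.82 with hairpins 1 and 2 in MOLM-13 (adjusted p = 0.0235 and 0.0155), and 2.065 and 2.82 in MV411 (adjusted p = 0.018 and 0.00128). In SKNO1 the fold change was 1.43 with hairpin 1, which did not pass (adjusted p = 0.128, against 0.0098 with DESeq2), and 2.085 with hairpin 2, which did (adjusted p = 0.00156).

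The calls of ICAM1 with hairpin 2 in MV411 and SKNO1 were kept in all 12 alternatives. The call with hairpin 2 in MOLM-13 was lost without scramble replicate 3 (adjusted p = 0.0752), and the call with hairpin 1 in MOLM-13 and in MV411 was lost in 4 of 12 each, when replicate 1 or 2 of hairpin 1 or replicate 1 or 3 of scramble was left out. The log2 fold change itself stayed between 1.55 and 2.10 with hairpin 1 in MOLM-13 and between 0.98 and 1.155 with hairpin 1 in MV411. Between the hairpins, ICAM1 was higher with hairpin 2 in SKNO1, 1.46-fold (adjusted p = 0.0376), a call lost in 7 of 12 alternatives, and did not pass in MV411 (1.37-fold, adjusted p = 0.224). ICAM1's counts were whole numbers in 1 of 27 libraries, and 2 antisense genes overlap it, the higher with at most 189.88 counts in a library.

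ICAM3, a ligand of ITGAL that resting leukocytes carry, lies 47160 bases from ICAM1 on chromosome 19 (chr19:10333776-10339823, minus strand) and passed the threshold in 1 comparison, downward. In MV411 it was 4.999, 6.66 and 7.47 CPM with hairpin 1 and 9.89, 11.6 and 10.5 CPM with hairpin 2, against 9.85, 10.96 and 9.91 CPM in scramble. Hairpin 1 lay below both other groups, at 0.619 times scramble (adjusted p = 0.0432) and hairpin 2 was 1.66-fold above hairpin 1 (adjusted p = 0.0234). The call between the hairpins was lost in 4 of 12 alternatives, with adjusted p up to 0.117: in the fit of all 27 libraries and without hairpin 1 replicate 1 or 2 or hairpin 2 replicate 1. The call against scramble was lost whichever of the 6 libraries was left out. In MOLM-13 it was 187, 123 and 98.0 CPM with hairpin 1 and 98.4, 92.1 and 169 CPM with hairpin 2, against 101, 97.1 and 62.0 CPM in scramble. In SKNO1 it was 95.8, 52.3 and 60.2 CPM with hairpin 1 and 51.0, 56.95 and 43.5 CPM with hairpin 2, against 61.0, 38.9 and 65.4 CPM in scramble. The groups overlapped in both lines and none of these comparisons passed.

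The hairpins were compared directly because integrin subunits passed against scramble only with hairpin 2 of MV411. In MV411, 4 of 9 members were higher with hairpin 2 than with hairpin 1 (ITGAM, ITGAX, ITGB7 and ICAM3), where 5.86% of genes were higher, 5.62% lower and 11.5% called in either direction. ITGB2 (log2 0.28 ± 0.16, adjusted p = 0.314), ITGB1 (0.40 ± 0.23, adjusted p = 0.313) and ICAM1 (0.45 ± 0.22, adjusted p = 0.224) did not pass. In SKNO1, 1 member did, ICAM1, where 4.52% of genes were higher, 5% lower and 9.52% called in either direction. In MOLM-13, no member passed in edgeR, where 0% of genes were called, with 0 members and 335 genes at an unadjusted p under 0.05, and DESeq2 called 1 gene.

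Whether a hairpin acted differently between lines was tested as an interaction over all 27 libraries, and no member passed in any of the 6 interactions. Of 21262 genes, the share called with hairpin 1 was 0% for MOLM-13 against MV411 (0% higher and 0% lower), 4.56% for MOLM-13 against SKNO1 (1.46% higher and 3.1% lower) and 0.983% for MV411 against SKNO1 (0.16% higher and 0.823% lower). Of 21262 genes, the share called with hairpin 2 was 0.0705% for MOLM-13 against MV411 (0.0188% higher and 0.0517% lower), 0.489% for MOLM-13 against SKNO1 (0.193% higher and 0.296% lower) and 0.927% for MV411 against SKNO1 (0.376% higher and 0.55% lower). The smallest adjusted p was that of ICAM1, whose log2 fold change with hairpin 1 was 1.27 ± 0.41 larger in MOLM-13 than in SKNO1 (adjusted p = 0.0736 in edgeR). That of ITGAM with hairpin 2 was 2.44 ± 0.84 larger in MV411 than in SKNO1 (adjusted p = 0.183). For ICAM3 with hairpin 1, MOLM-13 exceeded MV411 by 1.33 ± 0.385 (adjusted p = 0.389). The calls in MV411 and their absence in another line are therefore not shown to differ between lines. In the hairpin 1 interaction of MOLM-13 and MV411, where edgeR called 0 genes, 1419 had an unadjusted p under 0.05 and DESeq2 called 31. At an unadjusted p under 0.05 the members numbered 0 to 2 per interaction, and DESeq2 called 1 member in 1 interaction.

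Several members were high and low in the same libraries of MOLM-13. Hairpin 1 replicate 1 was the highest of its group for ITGAM, ITGAX, ITGB2, ITGA4, ITGB1, ITGB7, ICAM1 and ICAM3, hairpin 2 replicate 3 was the highest of its group for ITGAM, ITGAL, ITGB2, ITGB1, ITGB7, ICAM1 and ICAM3, and scramble replicate 3 was the lowest of its group for ITGAM, ITGAX, ITGB2, ITGB7 and ICAM3. In the same line the summed CPM of 13 myeloid leukaemia markers was 3374 to 5797 with hairpin 1 and 1189 to 5559 with hairpin 2, against 946 to 4004 in scramble. Most of that sum was LYZ, which encodes lysozyme, at 3745 ± 1144 and 2920 ± 2141 CPM with hairpins 1 and 2, against 1558 ± 1557 CPM in scramble. Other genes of the list had lower means in the knockdown: MPO was 64.3 ± 37.5 and 48.4 ± 3.83 CPM, against 123 ± 84.1 CPM in scramble, HOXA9 was 43.25 ± 3.46 and 33.9 ± 7.49 CPM, against 53.0 ± 6.46 CPM, and MEIS1 was 37.2 ± 1.81 and 34.2 ± 7.49 CPM, against 50.8 ± 7.77 CPM. CD14, a monocyte receptor on that list, was 3.255 ± 3.68 and 3.17 ± 2.47 CPM with hairpins 1 and 2, against 0.112 ± 0.0566 CPM in scramble (SD, n = 3 each). In MV411 CD14 was 2.775 ± 0.4435 CPM with hairpin 2 and 0.393 ± 0.243 CPM with hairpin 1, against 0.447 ± 0.153 CPM in scramble. Others of the list moved differently there. CSF1R was 54.65 ± 17.46 and 58.66 ± 15.42 CPM with hairpins 1 and 2, against 27.77 ± 4.03 CPM in scramble. ANPEP was 4.11 ± 1.13 and 4.16 ± 2.02 CPM, against 0.972 ± 0.344 CPM. MPO had lower means, at 1.99 ± 0.421 and 1.71 ± 0.225 CPM, against 3.13 ± 0.469 CPM. In bulk RNA, more cells of a kind and more RNA per cell cannot be told apart.

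Markers of other cell types were followed beside these results. The summed CPM of 5 B cell markers was 4.13 to 6.86 with hairpin 2 in MV411 and 2.02 to 2.34 with hairpin 1, against 1.76 to 2.37 in scramble, while MS4A1 on that list was at most 0.0395 CPM in that line. In SKNO1 it was 40.2 to 51.8 in knockdown libraries, against 30.65 to 31.5 in scramble, nearly all of it CD79B, with MS4A1 at 0. The 5 erythroid markers summed to at most 0.905 CPM and the 5 T cell markers to at most 2.18 CPM in every library. The 5 megakaryocyte and platelet markers summed to 3.10 to 5.01 CPM with hairpin 2 in MV411, against 6.39 to 8.47 in scramble, and to 20.6 to 59.4 CPM over the libraries of SKNO1, with PF4 at 0 in all 27. The 5 epithelial and fibroblast markers summed to 7.505 to 18.4 CPM in MOLM-13 and MV411 through KRT8 and KRT18, and to at most 0.167 CPM in SKNO1. Their part in the results was not tested.

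With the mean of each line removed, ITGAM and ITGB7 were the members most alike over the 27 libraries (Pearson r = 0.906, on log2 CPM), followed by ITGB2 and ITGB7 (0.816), ITGAX and ITGB7 (0.793) and ITGAM and ITGAX (0.791). The promoters of the first 2 are shown because these genes varied together: ITGAM at chr16:31259725-31260024, plus strand, and ITGB7 at chr12:53207202-53207501, minus strand, both from RefSeq on GRCh38.p14. Capitals mark matches on either strand to GAGGAA, a core of the motif of PU.1, the myeloid transcription factor encoded by SPI1.
ITGAM: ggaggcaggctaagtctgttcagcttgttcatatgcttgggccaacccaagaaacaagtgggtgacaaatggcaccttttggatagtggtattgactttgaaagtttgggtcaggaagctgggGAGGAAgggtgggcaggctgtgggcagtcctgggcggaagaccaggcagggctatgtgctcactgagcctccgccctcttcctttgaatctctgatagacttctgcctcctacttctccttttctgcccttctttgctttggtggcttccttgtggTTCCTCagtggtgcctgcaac
ITGB7: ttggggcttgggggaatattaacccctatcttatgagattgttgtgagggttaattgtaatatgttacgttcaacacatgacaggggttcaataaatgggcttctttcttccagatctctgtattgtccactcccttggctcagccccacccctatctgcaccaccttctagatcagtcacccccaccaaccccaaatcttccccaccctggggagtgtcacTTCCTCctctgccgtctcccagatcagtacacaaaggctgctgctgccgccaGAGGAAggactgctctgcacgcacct
Each of the 2 windows held 2 matches, at 127 bases before and from base 30 after the start in ITGAM and at 28 bases before and from base 25 after it in ITGB7. At least 1 match was found in 27.6% of 27305 promoters, and the share with 2 or more was not taken. Of the 6 members with a RefSeq window, ITGB1 and ICAM3 held 1 match each, and ICAM1 and ITGA4 held none. RUNX (TGTGGT) was found in ITGAM only, sharing 1 base with the second PU.1 match, against 13.1% of promoters, and SP1 (GGGCGG) in ITGAM, ITGB1 and ICAM1, against 44.6%. ITGAX, ITGAL and ITGB2 were the members without a window.

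Over the same 27 libraries and 10254 genes, the genes most like ITGAM were DNASE2, a lysosomal nuclease, and CYBB, the phagocyte oxidase subunit (r = 0.916 and 0.915). Those most like ITGAX were PDE1B and C19orf38 (0.903 and 0.884), and those most like ITGB2 were MAN1B1 and LRPAP1 (0.923 and 0.909), which act in glycoprotein and receptor folding in the endoplasmic reticulum. For ITGB7 they were DNAJB2 and DNASE1L1 (0.947 and 0.934). For ICAM1 they were complement C3 and NFKBIE, an inhibitor of NF-kB (0.944 and 0.943). For ICAM3 they were SPINT2 and MGAT1 (0.847 and 0.813), for ITGAL INPP5D and KHNYN (0.828 and 0.783), and for ITGB1 ZFAND6 and RAB18 (0.908 and 0.901). ITGA4 was most like its neighbour CERKL (0.969), then IQGAP2 (0.787). These values describe libraries that share the hairpin groups and carry no test.

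The other integrin subunits were followed as lists. The list of 14 other alpha subunits had 9 tested genes in MOLM-13 and 10 in MV411 and SKNO1. None was called in MOLM-13, where 6.38% and 9.42% of all genes were with hairpins 1 and 2. In MV411, 1 rose with hairpin 1, where 2.37% of all genes were called higher. With hairpin 2 in MV411, 2 rose and 1 fell, where 8.38% were called higher and 10.2% lower. In SKNO1, 1 rose with hairpin 1 and 2 with hairpin 2, where 0.255% and 5.54% were called higher. ITGA9, which pairs with ITGB1, rose with hairpin 2 to 6.85 ± 5.70 CPM in MV411, against 0.2435 ± 0.1065 CPM in scramble (log2 4.80 ± 0.73, adjusted p = 0.00145), and to 72.75 ± 10.7 CPM in SKNO1, against 17.3 ± 4.19 CPM (log2 2.055 ± 0.32, adjusted p = 0.00253). ITGA5, the fibronectin receptor subunit, rose with hairpin 1 in MV411 (0.62 ± 0.16, adjusted p = 0.0461) and with both hairpins in SKNO1 (1.04 ± 0.18 and 0.94 ± 0.18, adjusted p = 0.0351 and 0.00641). With hairpin 2 in MV411, ITGA6, a laminin receptor subunit, rose (1.91 ± 0.48, adjusted p = 0.0194) and ITGA2B, the platelet integrin subunit, fell (-1.43 ± 0.305, adjusted p = 0.00835).

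Of 5 other beta subunits, 1 was tested in MOLM-13 and 2 in MV411 and SKNO1. All genes called lower were 4.25% and 6.03% with hairpins 1 and 2 in MOLM-13 and 10.2% with hairpin 2 in MV411. Those called higher with hairpin 2 in SKNO1 were 5.54%. ITGB5 fell with both hairpins in MOLM-13, to 5.59 ± 0.753 and 6.40 ± 2.02 CPM, against 14.2 ± 5.15 CPM in scramble (adjusted p = 0.0318 and 0.0481), and with hairpin 2 in MV411, to 1.23 ± 0.393 against 2.54 ± 0.5765 CPM (adjusted p = 0.0275). ITGB8 rose with hairpin 2 in SKNO1, to 1.56 ± 0.172 against 0.747 ± 0.1605 CPM (adjusted p = 0.0362). No other beta subunit passed.

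Among 24 genes of integrin activation and linkage to actin, 22 were tested in each comparison. With hairpin 1 and hairpin 2 in that order, 1 and 1 rose in MOLM-13, 2 and 3 in MV411, and 0 and 7 in SKNO1. The shares of all genes called higher, in the same order, were 2.13% and 3.39%, 2.37% and 8.38%, and 0.255% and 5.54%. The only listed gene that fell was RASGRP2, an activator of RAP1, with hairpin 2 in MV411 (-0.71 ± 0.15, adjusted p = 0.0072). There 10.2% of all genes were called lower. FYB (now FYB1), an adaptor that carries signals from receptors to integrins, rose in 5 of 6. It reached 67.2 ± 6.20 and 54.0 ± 18.2 CPM with hairpins 1 and 2 in MOLM-13, against 22.4 ± 9.56 in scramble, 28.9 ± 8.20 and 44.5 ± 3.68 in MV411, against 17.2 ± 1.86, and 90.2 ± 12.0 with hairpin 2 in SKNO1, against 50.2 ± 10.4 (adjusted p between 0.00102 and 0.0453). With hairpin 1 in SKNO1, FYB was at 43.1 CPM (adjusted p = 0.611). TLN1, which encodes the talin that opens integrins from inside the cell, rose with hairpin 2 in MV411 (0.59 ± 0.13, adjusted p = 0.00835), and so did CYTH1, a regulator of ITGB2 adhesion (0.57 ± 0.14, adjusted p = 0.0183). FERMT3, the kindlin of blood cells, rose with hairpin 2 in SKNO1 (0.885 ± 0.19, adjusted p = 0.0116), as did RASSF5, a RAP1 effector (1.07 ± 0.18, adjusted p = 0.00322). FLNA, an actin crosslinker that binds beta tails, rose with hairpin 1 in MV411 (0.78 ± 0.17, adjusted p = 0.0243).

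Other integrin ligands and other adhesion receptors were followed as further lists. Of 12 further ligands, 7 or 8 were tested. With hairpin 1, 1 of 8 rose in MOLM-13 and 1 of 8 in MV411, where 2.13% and 2.37% of all genes were called higher. With hairpin 2, 2 of 8 fell in MV411 and 1 of 7 in SKNO1, where 10.2% and 5.69% were called lower. None was called with hairpin 1 in SKNO1 or hairpin 2 in MOLM-13. ICAM4 rose with hairpin 1 in MOLM-13, to 13.4 ± 3.32 against 5.83 ± 1.73 CPM (adjusted p = 0.0309), and F11R, a junction protein that binds ITGAL, rose with hairpin 1 in MV411, to 14.3 ± 1.29 against 7.15 ± 0.999 CPM (adjusted p = 0.0116). ICAM2 fell with hairpin 2 in MV411, to 0.8795 ± 0.148 against 1.715 ± 0.244 CPM (adjusted p = 0.0362). JAM3 fell there to 0.915 ± 0.247 against 1.718 ± 0.0904 CPM (adjusted p = 0.0389). It fell also with hairpin 2 in SKNO1, to 1.61 ± 0.143 against 2.99 ± 0.341 CPM (adjusted p = 0.0243). Of 14 selectins and other receptors, 10 or 12 were tested, and all calls came with hairpin 2. In MV411, 3 of 10 rose, where 8.38% of all genes were called higher, and in SKNO1, 2 of 12 rose, where 5.54% were. PECAM1, a receptor of leukocyte passage between endothelial cells, rose in MV411 to 112 ± 9.65 against 46.9 ± 5.96 CPM (adjusted p = 0.00046). SELPLG, the ligand of P-selectin, rose in MV411 (0.42 ± 0.13, adjusted p = 0.0441). CD226 rose in MV411 and SKNO1, at or below 3.95 CPM on average.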

How the data were processed

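Total RNA was made into stranded libraries after removal of ribosomal RNA with a TruSeq Total Stranded Ribo-Zero kit, per the labels' protocols. The authors deposited 1 table of expected counts, made by RSEM from STAR 2.5.3 alignments to GRCh38.p7, per the submitters' processing notes; how strand was treated in counting is not given in the sources used here. The expected counts were rounded to whole numbers, since 30.4% of values above 0 were not whole (tolerance 1e-09). Genes passed filterByExpr with a minimum of 10 and a total of 15.

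Each line was fitted alone with 3 groups of 3 libraries, the baseline on the 9 scramble libraries and the interactions on all 27. edgeR 4.0.16 (R 4.3.3, limma 3.58.1) gave the quasi-likelihood F-test with TMM scaling, and Benjamini-Hochberg p-values were adjusted over all genes tested, with a threshold of 0.05. SE is the log2 fold change over the square root of F. DESeq2 1.42.0, DESeq2 size factors, no low-count filter, structured RNA left out, a fit of all libraries, a replicate block and leaving out each replicate were alternatives. CPM used TMM over all 27 libraries, and lengths are exon unions of GENCODE 29. All 9 members were named, and from each pathway list at most 3 genes per direction and comparison, those with the smallest p among the called. The 2 genes most like each member were taken by Pearson r on log2 CPM with the mean of the line removed, among genes with a mean log2 CPM of at least 2. Same-numbered replicates deviated together (every correlation over 0.1) between hairpin 1 and scramble in MOLM-13 and between each hairpin and scramble in MV411. The replicate block was a term for the replicate number, fitted over all 9 libraries of a line. The labels give only the number. The members and lists were chosen with earlier results of these data known. One gene of the lists is not reported here.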

Additional observations from a re-analysis of the deposited data

How the results depend on the processing

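Counts of called members moved by over 1.5 times, or from or to 0, in these cases and in those of the replicate block below. Smaller moves are given after them. Without a low-count filter, 5 and 5 members passed with hairpins 1 and 2 in MOLM-13 (1 each as reported), 1 with hairpin 1 in SKNO1 (0), and 0 between the SKNO1 hairpins (1). The same setting called 2, 3 and 1 members in the hairpin 1 interactions (MOLM-13 against MV411, MOLM-13 against SKNO1, MV411 against SKNO1) and 1, 1 and 2 in those of hairpin 2, all 0 as reported. DESeq2 called 2 and 2 in MOLM-13, 1 and 2 with hairpins 1 and 2 in SKNO1, and 1 in the hairpin 1 interaction of MOLM-13 and SKNO1. The fit of all 27 libraries called 3 and 4 in MOLM-13, 1 with hairpin 1 in MV411 (2) and 0 between the SKNO1 hairpins. As smaller moves, that fit called 4 with hairpin 2 in MV411 (6) and 3 between the MV411 hairpins (4). At baseline it called 5 for MOLM-13 against MV411 (6). DESeq2 called 3 with hairpin 1 in MV411 (2). Without a low-count filter, 7 passed for MOLM-13 against MV411 at baseline (6) and 9 for SKNO1 against MV411 (8). DESeq2 size factors and leaving out structured RNA moved no count by over 1.5 times. The cause was not tested.

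With 1 replicate left out at a time, the counts ran between 0 and 1 for each hairpin in MOLM-13, 0 and 1 for hairpin 1 and 4 and 5 for hairpin 2 in MV411, 0 and 0 for hairpin 1 and 1 and 1 for hairpin 2 in SKNO1. Between the hairpins they were 0 and 0 in MOLM-13, 3 and 5 in MV411 and 0 and 1 in SKNO1. At baseline they were 4 and 6 for MOLM-13 against MV411, 7 and 8 for SKNO1 against MOLM-13, and 8 and 9 for SKNO1 against MV411. All 6 interactions stayed at 0. For single genes, 1224 values kept their side of the threshold, 27 gained and 45 lost a call, and 0 called values changed sign.

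Same-numbered replicates had correlations over 0.1 in all 3 pairs for hairpin 1 against scramble in MOLM-13 (0.135 to 0.287) and for hairpins 1 and 2 against scramble in MV411 (0.14 to 0.192 and 0.155 to 0.501). The replicate block there called 1, 3 and 6 members, where 1, 2 and 6 were reported; it added ITGAL with hairpin 1 in MV411 and changed no other member's call in these 3 comparisons. Genes called became 1003 in place of 1131, 2250 in place of 1159 and 4869 in place of 3313. In the other comparisons within a line not every correlation was over 0.1, with 0.064, 0.228 and 0.254 between the MV411 hairpins. The block in MOLM-13 also held hairpin 2, whose correlations with scramble were 0.281, -0.131 and -0.263. In the other comparisons the replicate block called 2 members with hairpin 2 in SKNO1 and 2 between its hairpins, where 1 each was reported. It took genes called with hairpin 1 in SKNO1 to 458 in place of 98, and those between the MV411 hairpins to 3516 in place of 2046.

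Genes called overall also moved. With hairpin 1, 1131 in MOLM-13, 1159 in MV411 and 98 in SKNO1 became 2034, 1816 and 967 with DESeq2, and 335 to 910, 341 to 1185 and 3 to 411 with 1 replicate left out. With hairpin 2, 1671 in MOLM-13 became 2707 with DESeq2 and 441 to 1586 with 1 replicate left out, 3313 in MV411 became 1716 to 3548 and 2069 in SKNO1 became 559 to 1374.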
